A study of Mus musculus with 12 samples.

Results

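A set of 10 chemokine genes of melanoma cells and tumor stroma was followed across 12 RNA-seq libraries of B16F10, a mouse melanoma cell line of C57BL/6 origin. They are Cxcl9, Cxcl10, Cxcl11, Ccl2, Ccl7, Ccl5, Cxcl1, Cxcl12, Cxcl16 and Cx3cl1. They were chosen by name, as the rows of the count table whose Ensembl identifier carries one of these symbols, and make up 10 of the 54232 genes in the table. Each of the 10 was found once. Of these, 9 passed the filter on low counts and entered the test across 14924 genes, and Cxcl11 did not.

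Chemokines are small secreted proteins that direct the movement of leukocytes through G protein-coupled receptors on the cells they attract. Cxcl9, Cxcl10 and Cxcl11 are induced by interferons and bind CXCR3 on activated T and NK cells, whereas Ccl2 and Ccl7 attract monocytes, Cxcl1 attracts neutrophils and Cxcl12 retains cells in stromal niches through CXCR4. Cxcl16 and Cx3cl1 are made as membrane proteins that can be shed, and fibroblasts are a known source of several of these ligands in tumors.

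The study asked which genes accompany the structures in which one tumor cell encloses another after immune attack, and compared 4 groups of 3 libraries. WT were untreated cultured B16F10 cells. The relapsed lines ITF1, Rel and ITM came from subcutaneous tumors that grew back after immunotherapy, and were cultured to confluency after sorting. Tumor 1, 3 and 4 were cells sorted from such tumors by the labels and the study's methods, with RNA taken at once, whereas the study's account of its results describes tumor cells taken some days after immunotherapy. Lyso 1, 2 and 3 were B16F10 cells given lysosomes from T cells, for 48 hours by the labels and for a shorter time in the study's methods. All labels give the strain C57BL/6 and an age of 6 weeks. By the study's methods the immunotherapy was an agonist antibody to CD40 with TNFα and an antibody to the melanosome protein TRP1, injected into the tumor. The labels do not say whether libraries of a group came from separate cultures or mice, so that p-values measure the spread between these libraries, which may be technical.

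Promoters are shown here because several of these ligands are classical targets of interferon and NF-κB signalling. RefSeq sequences of GRCm38.p6 were available for 5 of the 10 members, and the 250 bases before the transcription start are printed 5′ to 3′ on the gene's strand for 4 of them, all but Cx3cl1. Capitals mark matches to an interferon-stimulated response element (ISRE, searched as GAAANNGAAA), to a gamma-activated site (GAS, TTCNNNGAA) or to the NF-κB consensus, each on both strands.
Cxcl10: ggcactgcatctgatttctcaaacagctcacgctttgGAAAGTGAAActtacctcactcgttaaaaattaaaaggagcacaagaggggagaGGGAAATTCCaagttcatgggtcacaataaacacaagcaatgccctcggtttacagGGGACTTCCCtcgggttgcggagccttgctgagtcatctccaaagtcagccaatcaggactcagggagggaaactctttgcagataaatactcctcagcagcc
Cxcl9: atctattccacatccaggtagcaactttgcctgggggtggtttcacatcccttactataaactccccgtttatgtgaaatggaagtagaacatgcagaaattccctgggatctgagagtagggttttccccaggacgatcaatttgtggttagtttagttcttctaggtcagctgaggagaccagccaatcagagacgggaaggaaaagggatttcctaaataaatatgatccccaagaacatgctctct
Cxcl1: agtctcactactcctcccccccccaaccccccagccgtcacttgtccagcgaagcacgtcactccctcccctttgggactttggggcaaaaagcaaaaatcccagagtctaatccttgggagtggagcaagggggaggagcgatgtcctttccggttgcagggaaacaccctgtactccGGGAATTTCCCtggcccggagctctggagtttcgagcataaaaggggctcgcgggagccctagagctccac
Cxcl12: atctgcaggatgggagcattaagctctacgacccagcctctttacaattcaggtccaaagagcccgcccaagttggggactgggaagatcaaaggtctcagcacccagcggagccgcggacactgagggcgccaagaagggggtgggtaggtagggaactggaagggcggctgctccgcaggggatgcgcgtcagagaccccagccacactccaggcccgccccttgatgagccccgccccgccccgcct

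The Cxcl10 window lies at chr5:92348890-92349139 on the minus strand. It held 1 ISRE match, at bases -213 to -204 counted back from the start, and NF-κB matches at -159 to -150 and -103 to -94. The Cxcl1 window, at chr5:90890995-90891244 on the plus strand, held an NF-κB match at -71 to -62 whose reverse-strand match at -70 to -61 overlaps it. No match to these letters lay in the windows of Cxcl9 (chr5:92328080-92328329, minus strand), Cxcl12 (chr6:117168285-117168534, plus strand) or Cx3cl1. Among the 32851 promoter windows of the same length, 2.977% held the ISRE letters, 7.02% the GAS letters and 3.899% the NF-κB consensus. A match is only a description of the letters, and other response elements were not searched.

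Counts on genes per library ran from 1667398 to 16402629. WT 1 and WT 2 were the shallowest, with 1667398 and 2350129, and WT 3 held 16384021. The relapsed lines held at least 12749399, Lyso at least 10895611 and Tumor between 3102442 and 5049496. CPM, the unit of the levels below, is a count per 1000000 counts of effective library size, as scaled by TMM. A gene with 3 counts or fewer over the summed libraries of a group was treated as at the floor, which stands for 0.142 CPM in WT, 0.0672 in the relapsed lines, 0.0890 in Lyso and 0.244 in Tumor. Floors and counting intervals cover counting error only. WT 3 stood apart from the other WT libraries for Ccl5, at 8.79 CPM against 1.13 and 1.27 CPM. The same held for Irf1, an interferon response gene, at 17.9 CPM against 4.53 and 8.02 CPM. The calls against WT are therefore also given with WT 3 left out. Over all genes WT 1 stood apart instead. The chi-square per degree of freedom was 13.8 between WT 1 and WT 2, 22.09 between WT 1 and WT 3, and 5.148 between WT 2 and WT 3. The 10 melanocyte markers were above the floor in every library of all groups. Their summed levels ran from 19811 to 28448 CPM in WT and from 20546 to 22660 CPM in Tumor. They were higher in Lyso, at 29870 to 30651 CPM, and in the relapsed lines, at 23156 to 37434 CPM. Against WT, 0 of the 10 were called in Tumor. Gpr143 was called lower in Tumor than in Lyso. Mlana and Gpr143 were called lower, and Mitf higher, in Tumor than in the relapsed lines. The Tumor libraries also held RNA of genes that mark other cells. The 10 fibroblast markers summed to 7707 to 10709 CPM in Tumor against 15.1 to 39.5 CPM in the cultured groups.

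**Figure D1:**
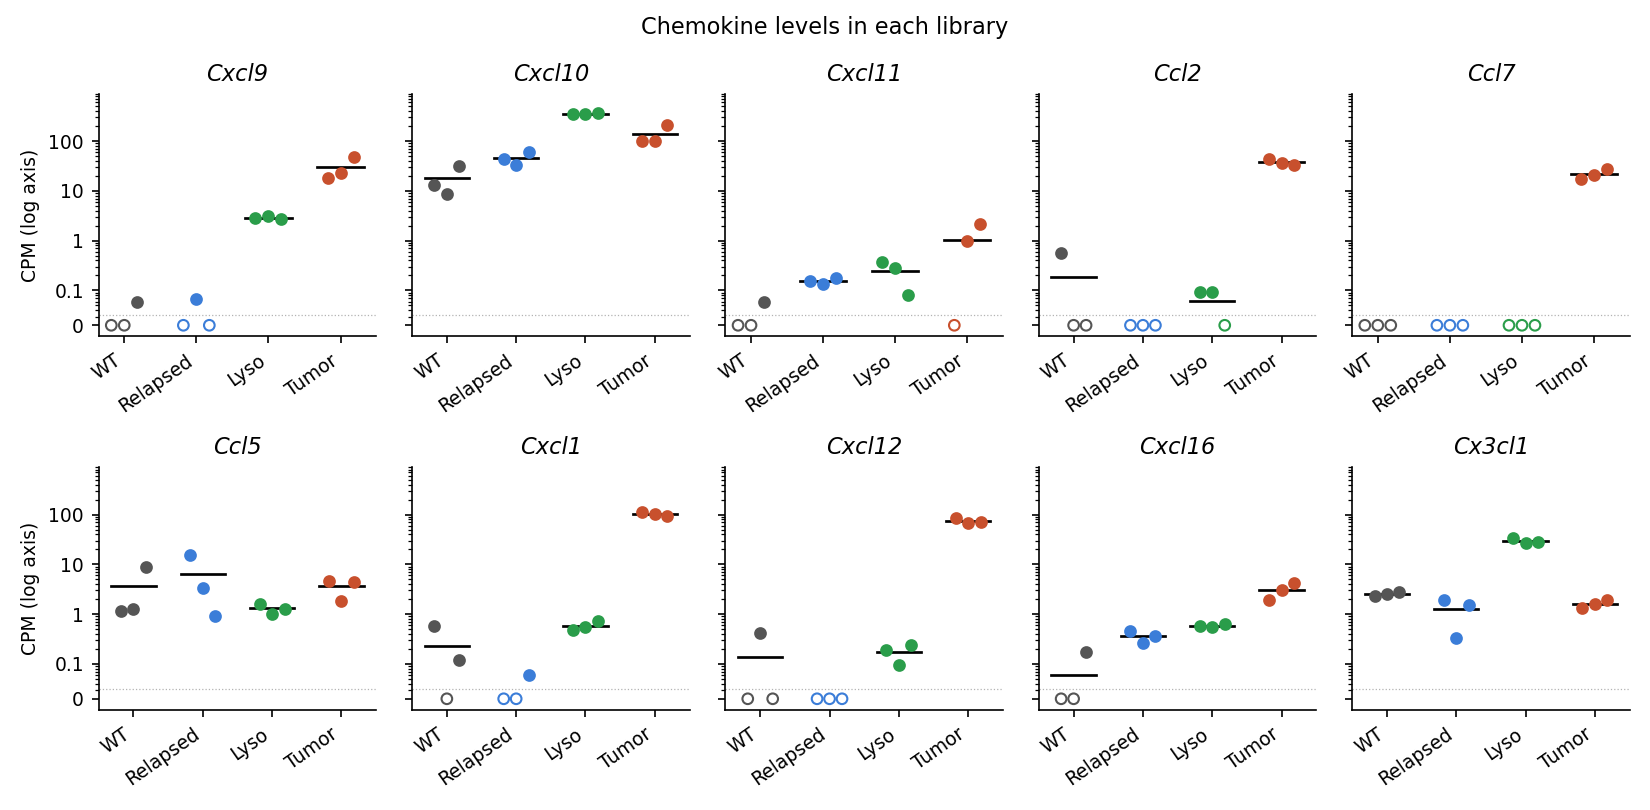
Normalized level (CPM, log axis) of each of the 10 chemokines in each of the 12 libraries, by group. Filled points are libraries, open points at the bottom are libraries with 0 counts, and black lines are group means of 0.032 CPM or more. Ccl2, Ccl7, Cxcl1 and Cxcl12 stand high in the Tumor libraries, while Cxcl10 and Cx3cl1 are highest in Lyso.

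A gene was called higher or lower where edgeR's quasi-likelihood test gave a Benjamini-Hochberg adjusted p below 0.05, over all genes tested, and the groups differed by more than 1 on the log2 scale. Against WT, 7 of the 9 tested members were higher in Tumor and 3 in Lyso, and none was lower in either. Over all genes tested, 8.56% were called higher and 2.20% lower in Tumor, and 2.43% higher and 0.576% lower in Lyso. The low-count filter works by group. Ccl2, Ccl7, Cxcl1, Cxcl12 and Cxcl16 had 3 or fewer summed counts in WT and were low in Lyso and the relapsed lines. They entered the test through Tumor, and Cxcl9 through Lyso and Tumor. For these members a high fold follows in part from passing the filter, so shares and medians over all genes are no like comparison. None of the 9 was called in the relapsed lines, where 0.0134% of all genes were higher and 0.0268% lower. At an unadjusted p below 0.05, edgeR gave 1 member higher and 1 lower in the relapsed lines and 0 lower in Lyso or Tumor, and DESeq2 also called 0 members in the relapsed lines. The members called in Tumor and in Lyso were not the same set. Cxcl9 and Cxcl10 were called in both, Ccl2, Ccl7, Cxcl1, Cxcl12 and Cxcl16 in Tumor, and Cx3cl1 in Lyso. Both comparisons use the same WT libraries. Without WT 3, edgeR called the same 7 members higher in Tumor, with adjusted p from 7.92e-07 to 0.00675, and 2 of the 3 in Lyso, Cxcl10 and Cx3cl1. The median log2 fold change of the members with a measurable fold was 7.28 in Tumor (9 members) and 2.06 in Lyso (7 members), with folds against groups at the floor taken as a pooled ratio or bound. The medians over all genes tested were 0.0014 and -0.0048.

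**Figure D2:**
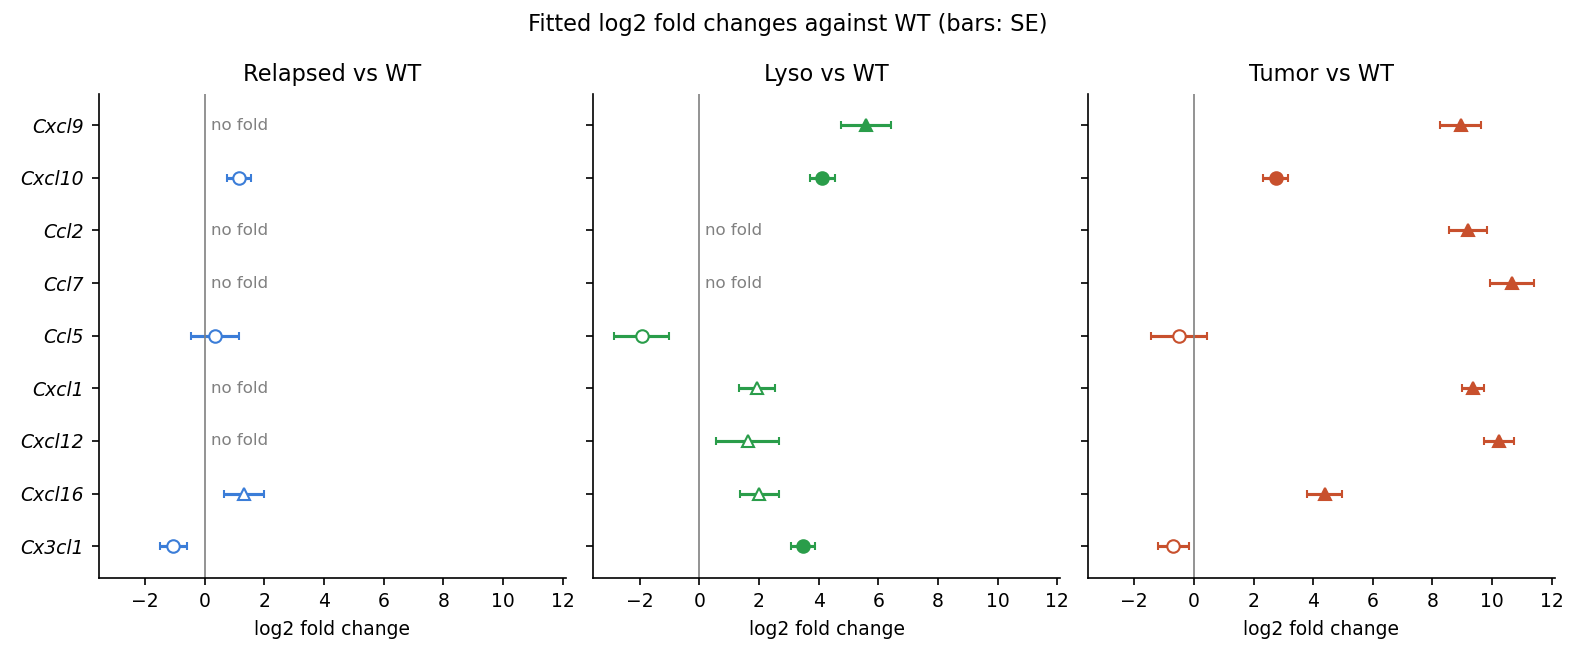
Fitted log2 fold change against WT (x axis) for the 9 tested chemokines, with the standard error as bars. Filled symbols were called, open symbols were not, and triangles mark genes with 3 or fewer summed counts in WT, whose fitted value depends on the prior count. In Tumor 7 symbols are filled, in Lyso 3 and in the relapsed lines none.

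Cxcl9 and Cxcl10, ligands of CXCR3, rose both in cells given the T cell material and in cells sorted from tumors, but in different proportions. Cxcl10 was the leading ligand of Lyso, and Cxcl9 was highest in Tumor. Cxcl10 (ENSMUSG00000034855, chr5:92346638-92348889), which shares 133 bases with Art3 on the opposite strand, measured 13.0, 8.44 and 32 CPM in WT 1, 2 and 3. It measured 42.7, 32.9 and 60.5 CPM in ITF1, Rel and ITM. The levels were 351, 346 and 371 CPM in Lyso 1, 2 and 3, and 101, 99.4 and 210 CPM in Tumor 1, 3 and 4. No Cxcl10 level of one group overlapped that of another, and Lyso stood above Tumor, the relapsed lines and WT in that order.

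Against WT, Cxcl10 was higher by 4.13 ± 0.43 on the log2 scale in Lyso (SE, edgeR adjusted p = 0.000256) and by 2.75 ± 0.42 in Tumor (adjusted p = 0.000648). Without WT 3 these differences were 5.09 and 3.70, with adjusted p = 0.000229 and 0.000265 in the same edgeR test. In the relapsed lines the difference of 1.16 ± 0.40 did not pass the test (adjusted p = 0.331), although the libraries did not overlap. With no filter on low counts, where 28974 genes were tested, edgeR called it (adjusted p = 0.000344), and the difference was 0.51 with WT 3 as the only control (adjusted p = 0.763) and 2.11 without WT 3 (adjusted p = 0.275). Relative to the relapsed lines, Cxcl10 was higher by 2.97 ± 0.40 in Lyso and by 1.59 ± 0.38 in Tumor (edgeR adjusted p = 0.000666 and 0.0107). Tumor lay 1.38 ± 0.38 below Lyso (log2 fold change -1.38, edgeR adjusted p = 0.0178). The call against Lyso was lost without Tumor 1, without Tumor 3 and without Lyso 3 (adjusted p = 0.0803, 0.0862 and 0.0504), and the call against the relapsed lines without Tumor 4 (adjusted p = 0.0633), all in edgeR.

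Cxcl9 (ENSMUSG00000029417, chr5:92321347-92328079) lies beside Cxcl10 on chromosome 5 and shares its receptor. It had 0, 0 and 1 counts in WT and 0, 1 and 0 in ITF1, Rel and ITM, so that both groups were at the floor. It had 30, 34 and 33 counts in Lyso, or 2.83, 3.17 and 2.67 CPM, and 55, 114 and 204 counts in Tumor, or 17.9, 22.9 and 48.0 CPM. All 6 libraries of Lyso and Tumor exceeded all 6 of WT and the relapsed lines. The pooled ratio to WT was 60.7 in Lyso (95% counting interval 10.6 to 2423) and 640 in Tumor (114 to 25346), which rests on 1 WT count. edgeR called both differences, with adjusted p = 0.00208 and 2.81e-06. The Lyso call was lost without WT 3 (adjusted p = 0.0759) and with all libraries thinned to 1667398 counts (adjusted p = 0.142), while the Tumor call held without WT 3 (adjusted p = 0.000399). Against the relapsed lines edgeR also called Cxcl9 higher in Lyso (adjusted p = 0.000177, and 0.13 at the thinned depth) and in Tumor (adjusted p = 2.44e-07).

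Tumor lay 3.36 ± 0.36 above Lyso for Cxcl9 (log2, edgeR adjusted p = 3.18e-05), the opposite direction to Cxcl10. Within each library, Cxcl10 had 124, 109 and 139 counts per Cxcl9 count in Lyso and 5.65, 4.33 and 4.37 in Tumor. The 95% counting interval of the ratio ran from 78.1 to 202 over the Lyso libraries and from 3.53 to 7.68 over the Tumor libraries, so that the ratio separated the groups in all 6 libraries. Per kilobase of exon, Cxcl10 was at 158 ± 5.91 CPM in Lyso and 60.8 ± 28.1 CPM in Tumor (SD, n = 3), and Cxcl9 at 0.958 ± 0.084 and 9.82 ± 5.35 CPM.

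Cxcl11 (ENSMUSG00000060183, chr5:92359544-92365485), listed here with the CXCR3 ligands, is annotated as a polymorphic pseudogene and shares 1582 bases with Gm2673 on the opposite strand. Whether these cells make its protein was not tested. It had 0, 0 and 1 counts in WT, 2, 2 and 3 in ITF1, Rel and ITM, 4, 3 and 1 in Lyso and 0, 5 and 9 in Tumor. It failed the count filter, and no exact two-sided permutation p between groups of 3 can go below 0.1. That value was reached for Lyso against WT and for the relapsed lines against WT, and Tumor against WT gave an exact permutation p of 0.4. In fits that kept the gene, Tumor was called higher than WT by DESeq2 (adjusted p = 0.0466), and by edgeR with no filter on low counts (adjusted p = 0.00847), without Tumor 1 (0.00436), without WT 1 (0.0287) and without WT 2 (0.0460). It was not called without WT 3 (edgeR adjusted p = 0.174).

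Levels of the CXCR3 ligands varied between the Tumor libraries. Within Tumor the highest library stood 2.69 times above the lowest for Cxcl9 and 2.11 times for Cxcl10, with Tumor 4 highest for both. Irf1, a transcription factor induced by interferon-γ, measured 35.4, 64.6 and 173 CPM in Tumor 1, 3 and 4. For Cxcl1, Cxcl12, Ccl2 and Ccl7 the highest-to-lowest ratio ran from 1.22 to 1.56, and for Col1a1 it was 1.38. It was 2.51 for Ccl5 and 2.17 for Cxcl16, which were low. Whether these spreads differ was not tested with 3 libraries.

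**Figure D3:**
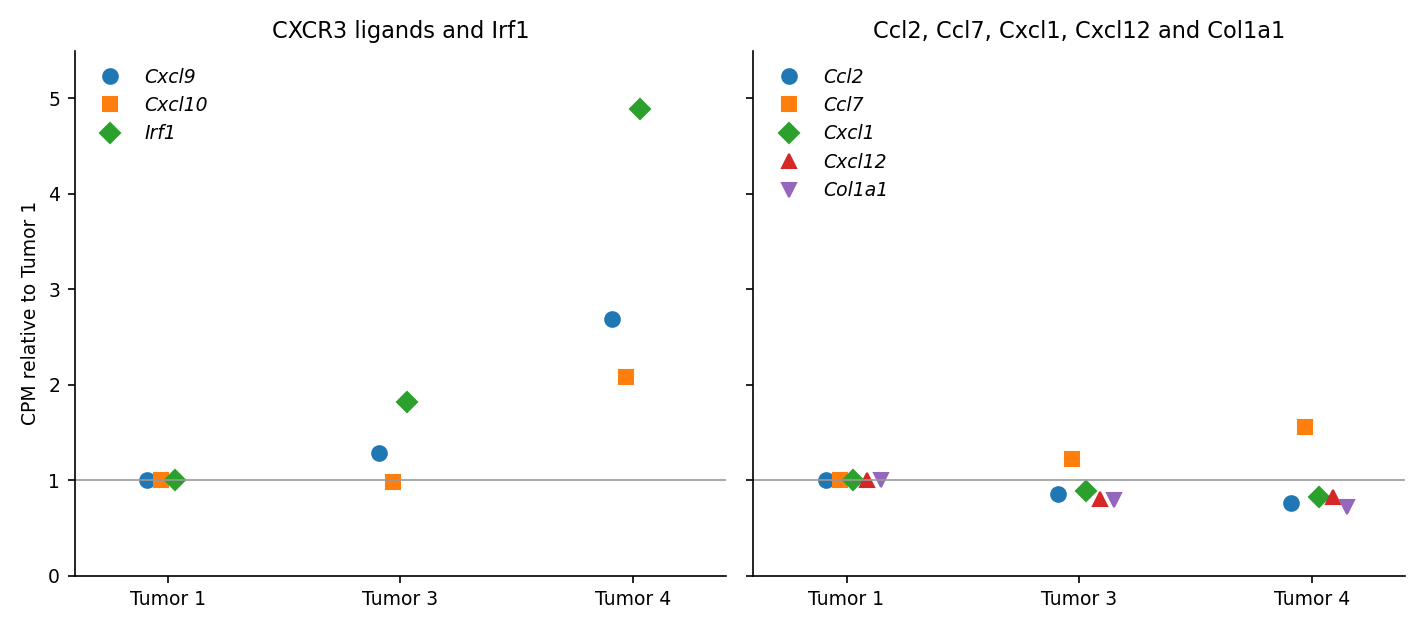
CPM in Tumor 3 and Tumor 4 relative to Tumor 1 (y axis, linear) for the CXCR3 ligands with Irf1 (left) and for Ccl2, Ccl7, Cxcl1, Cxcl12 and Col1a1 (right). Each symbol is 1 gene in 1 library. Tumor 4 stands highest for all 3 genes on the left, and the genes on the right stay within a highest-to-lowest ratio of 1.56.

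Interferon-γ acts through its receptor and the kinases Jak1 and Jak2, and switches on Irf1 and the CXCR3 ligands. Of 6 listed genes 5 were tested, and Irf1 was the 1 called higher in Lyso and in Tumor against WT. Irf1 measured 658, 746 and 758 CPM in Lyso against 4.53, 8.02 and 17.9 CPM in WT, a difference of 5.89 on the log2 scale (edgeR adjusted p = 0.000193). Its difference in Tumor was 2.91 (edgeR adjusted p = 0.00198). Without WT 3 these differences were 6.81 and 3.82 (edgeR adjusted p = 0.000516 and 0.00359). Jak1, Ifngr1, Ifngr2 and Jak2 were not called in either comparison. Ifng itself, the cytokine, had at most 0.405 CPM in any library, with 2, 0 and 5 counts in Lyso and 0, 0 and 1 in Tumor. It was at 0 in all WT and relapsed libraries. The median log2 fold change of the 5 tested genes was 0.043 in Lyso and 0.45 in Tumor.

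RNA of T cells was measurable in Lyso. The 13 T cell markers summed to 21.7 to 24.9 CPM there, against 5.91 to 12.5 CPM in WT and 11.1 to 17.4 CPM in Tumor. Gzmb, a granule protease, was at 6.03, 6.71 and 5.10 CPM in Lyso and at 0 in WT, where 11 of the 13 genes were at 0 in all libraries, Cd3e and Cd8a included. In Tumor Cd3d, Cd3e, Cd8b1 and Gzma were at 0 in all 3 libraries, which were shallower than those of Lyso. Cd8a had 0, 2 and 4 counts there, Gzmb 1, 0 and 3, and Lck 12, 11 and 26. Cd8a and Gzmb were called higher in Tumor than in the relapsed lines, and Cd8b1 and Gzmb lower than in Lyso. The share of counts on mitochondrial genes was also higher in Lyso, at 8.53%, 6.08% and 6.09%, against 3.75% to 4.39% in WT, 3.33% to 5.51% in the relapsed lines and 2.69% to 3.10% in Tumor. Lyso 1 differed from Lyso 2 and Lyso 3 by a chi-square of 13.25 and 12.86 per degree of freedom over genes, and those from each other by 1.595. Such values ran from 51.8 to 73.38 between the relapsed lines and from 5.148 to 22.09 between the WT libraries. Without Lyso 1 the same 3 members, Cxcl9, Cxcl10 and Cx3cl1, were called against WT. The part of T cell RNA or of RNA quality in the chemokine levels of Lyso was not tested.

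The inflammatory CC chemokines Ccl2 and Ccl7 were Tumor genes in these data. Ccl2 (ENSMUSG00000035385, chr11:82035571-82037453), a ligand of CCR2 that attracts monocytes, had 131, 180 and 138 counts in Tumor 1, 3 and 4, or 42.6, 36.2 and 32.5 CPM. It had 1, 0 and 0 counts in WT, 0 in each relapsed line and 1, 1 and 0 in Lyso. Ccl7 (ENSMUSG00000035373, chr11:82045712-82047525), its neighbour and a ligand of several CC receptors, had 53, 105 and 114 counts in Tumor, or 17.2, 21.1 and 26.8 CPM, and 0 in all 9 other libraries. No Tumor library overlapped another group for either gene.

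The pooled ratio of Ccl2 in Tumor to WT was 770 (95% counting interval 138 to 30497), from 1 WT count, and to Lyso 615 (169 to 5096). Against the relapsed lines Ccl2 was at least 544-fold higher, with the floor of 3 counts over the group. Ccl7 was at least 156-fold higher than in WT, 329-fold higher than in the relapsed lines and 248-fold higher than in Lyso, by the same floor. In edgeR the adjusted p of Ccl2 ran from 5.11e-07 to 4.67e-06 over the 3 comparisons and that of Ccl7 from 3.15e-05 to 0.000147. In each Tumor library Ccl2 exceeded Ccl7 in counts, by 2.47, 1.71 and 1.21 times. The lower bound of the counting interval of the last was 0.938, so that in Tumor 4 the counts of these genes did not differ beyond counting error. Per kilobase the levels were 32.6 ± 4.49 CPM for Ccl2 and 27.1 ± 6.03 CPM for Ccl7 (SD, n = 3).

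Ccl5 (ENSMUSG00000035042, chr11:83525778-83530518), which attracts T cells and macrophages, varied widely within the cultured groups. It measured 1.13, 1.27 and 8.79 CPM in WT 1, 2 and 3, and 15.1, 3.28 and 0.899 CPM in ITF1, Rel and ITM. In Lyso it was at 1.60, 1.02 and 1.3 CPM and in Tumor at 4.55, 1.81 and 4.47 CPM. The single libraries WT 3 and ITF1 set the means of their groups. None of the 6 comparisons was called, with edgeR adjusted p from 0.144 for Lyso against the relapsed lines to 0.924 for the relapsed lines against WT. Leaving out 1 library turned the direction in several comparisons. Lyso against WT went from -1.93 to 0.12 without WT 3, and the relapsed lines against WT from 0.34 to -1.31 without ITF1. Tumor exceeded Lyso by 1.42 ± 0.999 with no overlap of libraries (edgeR adjusted p = 0.332), and this was called when only those 6 libraries were fitted (adjusted p = 0.0109).

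Cxcl1 and Cxcl12 were high in Tumor and at or near the floor in culture. By CPM per kilobase Cxcl1 was at 55.1 ± 5.53 and Cxcl12 at 9.11 ± 1.13 in Tumor (SD, n = 3). Cxcl1 (ENSMUSG00000029380, chr5:90891241-90893115), a ligand of CXCR2 that attracts neutrophils, measured 114, 101 and 93.9 CPM in Tumor 1, 3 and 4, from 352, 504 and 399 counts. It had 1, 0 and 2 counts in WT, 0, 0 and 1 in ITF1, Rel and ITM, and 5, 6 and 9 in Lyso. Tumor stood far above all other libraries, and Lyso stood above the relapsed lines but overlapped WT.

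The pooled ratio of Cxcl1 in Tumor was 718 to WT (95% counting interval 245 to 3485) and 4559 to the relapsed lines (817 to 180194). Tumor lay 7.41 ± 0.27 above Lyso on the log2 scale (edgeR adjusted p = 2.67e-09). Lyso exceeded the relapsed lines by a pooled ratio of 26.5 (4.24 to 1099), which edgeR called (adjusted p = 0.00203) and which was not called at a thinned depth of 1667398 counts (adjusted p = 0.675). Against WT, Lyso did not pass edgeR's test (adjusted p = 0.0932, and 0.681 without WT 3), but was called without WT 1 (adjusted p = 0.04996). NF-κB, whose consensus lies in the Cxcl1 and Cxcl10 windows printed above, is a family of transcription factors released by TNF and interleukin-1 signals. Of 8 listed NF-κB genes 7 were tested, and 4 were higher in Tumor against WT and 2 in Lyso.

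Nfkbiz, an inducible NF-κB cofactor, was at 78.3, 85.3 and 90.9 CPM in Tumor, 13.9, 14.5 and 14.5 CPM in Lyso, and 5.66, 5.07 and 4.48 CPM in WT. Tnfaip3, a feedback inhibitor of NF-κB, was at 29.9, 29.4 and 38.6 CPM in Tumor against 1.70, 1.27 and 1.89 CPM in WT. The inhibitor Nfkbia and the cytokine Il1b were also called in Tumor, while Tnfrsf1a, a TNF receptor, was called with Nfkbiz in Lyso. The median log2 fold change of the tested NF-κB genes was 1.64 in Tumor (7 genes) and 0.066 in Lyso (6 genes with a fold). All 8 early response genes listed, such as Fos and Fosb, were also higher in Tumor, with a summed level of 3742 to 4565 CPM against 198 to 288 CPM in WT. The part of the NF-κB and early response genes in the levels of Cxcl1 was not tested. By the study's account, treated tumors were digested with enzymes before cells were sorted, and only in Tumor was RNA taken at once after sorting. This handling is confounded with the Tumor group, and its part in the levels of these genes was not tested.

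Messages of inflammatory chemokines are short-lived, in part through proteins that bind or cut them. Of these, Zfp36, Zfp36l1 and Zc3h12a were all called higher in Tumor against WT, and Zfp36 and Zfp36l1 in Lyso. Zfp36 measured 143, 155 and 226 CPM in Tumor, 90.9, 60.3 and 67.2 CPM in Lyso, and 6.23, 8.02 and 11 CPM in WT.

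Cxcl12 (ENSMUSG00000061353, chr6:117168535-117181367), the homeostatic ligand of CXCR4 and of the scavenging receptor Ackr3, measured 85.2, 68.4 and 69.9 CPM in Tumor, from 262, 340 and 297 counts. It had 0, 1 and 0 counts in WT, 0 in each relapsed line, and 2, 1 and 3 in Lyso. Every Tumor library was above every other library. The pooled ratio to WT was 1543 (95% counting interval 276 to 60995), from 1 WT count, and Cxcl12 was at least 1088-fold higher than in the relapsed lines. Tumor lay 8.60 ± 0.38 above Lyso (log2, edgeR adjusted p = 8.86e-08). Between Lyso and the relapsed lines the 6 Lyso counts did not pass edgeR's test (adjusted p = 0.0591), but did in DESeq2 (adjusted p = 0.0457).

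Ccl2, Ccl7, Cxcl1 and Cxcl12 were high in the libraries in which RNA of fibroblast markers was high. All 10 fibroblast markers were called higher in Tumor against WT, with Col1a1, a collagen chain, at 2655, 2096 and 1922 CPM against 4.53, 3.80 and 4.72 CPM. Lum and Thy1 were at 0 in all WT libraries and Col3a1 in all Lyso libraries. Within the Tumor libraries there were 0.0321, 0.0327 and 0.0364 Cxcl12 counts per Col1a1 count, 0.0431, 0.0484 and 0.0489 for Cxcl1, and 0.0160, 0.0173 and 0.0169 for Ccl2. For each of these 3 ratios the counting intervals of the Tumor libraries overlapped. For Ccl7 the ratio was 0.00649, 0.0101 and 0.0140, with counting intervals of Tumor 1 and Tumor 4 that did not overlap. Mlana, a melanocyte marker, also varied little between the Tumor libraries, at 676, 675 and 677 CPM, so a steady ratio names no source. Markers of myeloid cells summed to 54.0 to 80.5 CPM in Tumor and 15.3 to 30.6 CPM in WT. The sums were 14.7 to 47.5 CPM in the relapsed lines and 35.8 to 39.4 CPM in Lyso. Of 8 tested, 6 were called higher in Tumor against WT, including C1qa and C1qb, at 0 in all cultured libraries. Csf1r and Cd68 were not called. Endothelial markers summed to 48.3 to 53.6 CPM in Tumor, 2.96 to 10.2 CPM in WT, 2.15 to 23.6 CPM in the relapsed lines and 8.11 to 8.91 CPM in Lyso. The 5 neutrophil markers summed to at most 1.41 CPM in Tumor, with Ly6g and Cxcr2 at 0. The part of these cells in the Tumor levels was not tested. In bulk RNA fewer cells of a type and less RNA per cell cannot be told apart.

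The membrane-bound chemokines Cxcl16 and Cx3cl1 went different ways. Cx3cl1 (ENSMUSG00000031778, chr8:94772009-94782427), or fractalkine, which holds cells that carry CX3CR1, rose in Lyso. It measured 33.8, 26.8 and 28.1 CPM there and 2.26, 2.53 and 2.77 CPM in WT. In ITF1, Rel and ITM it was at 1.92, 0.335 and 1.56 CPM, and in Tumor at 1.3, 1.61 and 1.88 CPM. The 3 Lyso libraries stood above all 9 others, and Tumor and the relapsed lines overlapped.

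Cx3cl1 was higher in Lyso than in WT by 3.48 ± 0.40 (log2, edgeR adjusted p = 0.000425), than in the relapsed lines by 4.54 ± 0.38 (adjusted p = 2.75e-05), and lower in Tumor than in Lyso, with a log2 fold change of -4.18 ± 0.42 (adjusted p = 1.88e-05). The Lyso call against WT held without WT 3 (3.61) and with WT 3 as the only control (3.40). WT 3 resembled the other WT libraries for this gene. In Tumor the level lay below every WT library, at -0.70 ± 0.52, which did not pass edgeR's test (adjusted p = 0.387), and the relapsed lines gave -1.05 ± 0.44 (adjusted p = 0.405).

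Cxcl16 (ENSMUSG00000018920, chr11:70453983-70459984), the ligand of CXCR6 on T cells, shares 552 bases with Zmynd15 on the opposite strand. It was low in all libraries, with 0, 0 and 3 counts in WT, 6, 4 and 6 in ITF1, Rel and ITM, 6, 6 and 8 in Lyso and 6, 15 and 18 in Tumor. The Tumor libraries, at 1.95, 3.02 and 4.24 CPM, lay above all others. Tumor exceeded Lyso by 2.37 ± 0.40 and the relapsed lines by 3.07 ± 0.41 (log2, edgeR adjusted p = 0.00091 and 0.000174), and the pooled ratio to WT was 22.3 (95% counting interval 7.09 to 113). Lyso against WT did not pass edgeR's test (adjusted p = 0.106, and 0.258 without WT 3).

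Comparing the groups directly, 6 of the 9 tested members were called higher in Tumor relative to Lyso and 2 were called lower, where 8.78% of all genes tested were higher and 4.14% lower. The 2 lower were Cxcl10 and Cx3cl1, and Ccl5 was not called. Against the relapsed lines 7 members were higher in Tumor, where 8.36% of all genes were higher and 2.31% lower. In both comparisons Ccl2, Ccl7, Cxcl1, Cxcl12 and Cxcl16 were among the higher members, and had entered the test through Tumor. In Lyso 4 members (Cxcl9, Cxcl10, Cxcl1 and Cx3cl1) were higher than in the relapsed lines, where 3.21% of all genes were higher and 1.04% lower. The count of members lower in those last comparisons, which share the relapsed lines, was 0 in edgeR and in DESeq2, and at an unadjusted p below 0.05 edgeR gave 0 for Tumor and 1 for Lyso.

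By CPM per kilobase of exon, Cxcl10 made up 92.9% to 94.3% of the 10 members in Lyso and 24.0% to 39.3% in Tumor. Cxcl1 made up 21.1% to 32.7% and Ccl2 12.05% to 20.02% in Tumor. In WT and the relapsed lines Cxcl10 was again first, with Ccl5 next in WT 3 at 37.8% and in ITF1 at 44.5%. In total the 10 members came to 379 to 405 CPM in Lyso and 357 to 494 CPM in Tumor, ranges that overlapped, against 12.7 to 44.0 CPM in WT and 37.0 to 63.6 CPM in the relapsed lines.

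**Figure D4:**
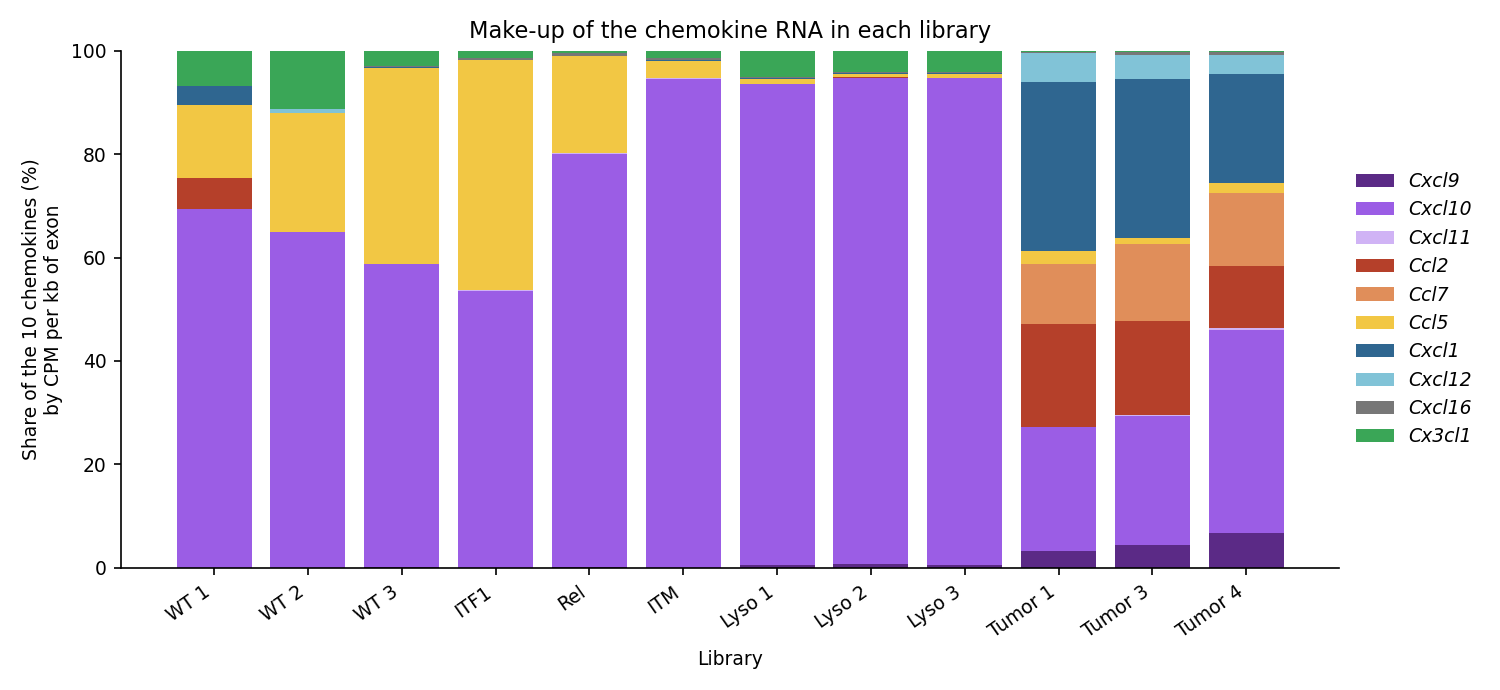
Share (%) of each chemokine in the summed CPM per kilobase of exon of the 10, by library. Cxcl10 fills 92.9% to 94.3% of each Lyso bar. Cxcl1, Ccl2, Ccl7 and Cxcl12 together take most of each Tumor bar, with the smallest share in Tumor 4.

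Receptors of these ligands were measured in the same libraries, which in Tumor hold RNA of markers of several cell types. Of 11 listed receptors 2 passed the count filter, and both were called higher in Tumor against WT. Ackr3, which scavenges the product of Cxcl12, measured 53.6, 66.0 and 52.0 CPM in Tumor, 13.4, 11.4 and 14.3 CPM in Lyso and 0, 8.02 and 5.25 CPM in WT. Cxcr3, the receptor of Cxcl9 and Cxcl10, measured 12.7, 11.3 and 7.30 CPM in Tumor, 2.45, 1.86 and 2.27 CPM in Lyso and 0.566, 0.844 and 0.590 CPM in WT, and Lyso was not called against WT (edgeR adjusted p = 0.212). Cxcr2, the receptor of Cxcl1, was at 0 in all Tumor libraries.

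Of 5 proteases that shed or trim chemokines, Dpp4 and Mmp2 were higher in Tumor against WT. Dpp4, which trims the CXCR3 ligands, was at 14.3, 26.8 and 22.1 CPM in Tumor and at 0 in WT. Mmp2, which cleaves the product of Cxcl12, was at 154, 166 and 180 CPM against 5.09, 6.33 and 11.1 CPM. Adam10 and Adam17, which shed Cx3cl1 and Cxcl16, were not called in any of the 3 comparisons with WT, and Adam17 ranged from 82.6 to 115 CPM over all libraries.

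The genes whose pattern over the 12 libraries was most like that of a member were found by Pearson's r of log2(CPM + 1). These values describe libraries that share group and depth, and carry no test. Nearest to Cxcl9 were Serpina3g (r = 0.993), H2-Q7 (0.992) and Csf2rb (0.990), and to Cxcl10 Ep400 (0.958), Gm11696 (0.957) and Fnbp4 (0.954). Nearest to Ccl2 were Svep1 (0.999), Mrc2 (0.998) and Col1a2 (0.997), and to Ccl7 Thbd (0.9998) and C1qc (0.9996). Cxcl1 was nearest to Abi3bp (0.997), Ccl2 (0.996) and Slit3 (0.995), and Cxcl12 to Gabra3, Grb10 and Il1rl2 (each 0.998). For Cxcl16 they were Tlr12 (0.985), Ctss (0.980) and Map3k1 (0.979), and for Cx3cl1 Fam208b (0.979), Cd8b1 (0.969) and Gm45397 (0.969). Ccl5 had the lowest values, with Tnrc18 (0.913), Rin1 (0.911) and Slc27a1 (0.908). With a pseudocount of 0.5 CPM, 3 of the 3 were shared for Cxcl9, Cxcl10 and Ccl5 and 1 for Cxcl1 and Cx3cl1.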

How the data were processed

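RNA was sequenced by the authors from 12 libraries. Adaptors were trimmed with fastp 0.19.6 and reads aligned to GRCm38 with STAR 2.7.1a, per the labels and the study's methods. The authors deposited raw counts per Ensembl gene, 1 column per library, without normalization; the strand setting and annotation release are not given in the sources used here. The depth was 1667398 to 16402629 counts on genes (36.2% to 39.4% of the reads of a library), and the rows of reads on no gene were left out. Symbols, positions and exon lengths came from a GENCODE annotation of GRCm38.

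Differential expression was computed with edgeR 4.0.16 in R 4.3.3 (TMM, filterByExpr, glmQLFit and glmQLFTest on all 12 libraries), after tests on simulated data. DESeq2 1.42.0 was an alternative. The standard error of a log2 fold change was taken as its size divided by the square root of the F statistic. Ratios against groups with 1 to 3 summed counts carry exact binomial (Clopper-Pearson) 95% intervals, and groups at 0 give bounds from 3 counts over the group. Other steps used Python 3.11.15.

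The members, gene lists and tests were chosen with earlier results of these data known. All 10 members were named, with genes of the listed pathways and, for each tested member, the 3 genes of highest Pearson r. Groups and replicate numbers came from the labels. Some listed or nearest genes are not reported here, and list counts are over the genes that are.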

Additional observations from a re-analysis of the deposited data

How the results depend on the processing

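The alternatives were DESeq2, other scaling factors, other low-count filters, a fit restricted to the groups compared, the adjusted p alone, glmTreat, thinned counts, other WT controls, a replicate block and each library left out. Of the member differences with a measurable fold, 45 were followed over these, and 655 of the alternative values kept direction and call, 10 lost a call, 8 gained one and 9 reversed. Without a low-count filter, 1 member was higher in the relapsed lines against WT (Cxcl10) and Ccl5 was the 1 lower in Lyso against WT and against the relapsed lines, where the reported count was 0. In Tumor against Lyso, glmTreat left 1 member lower (Cx3cl1) and Cxcl10 lost its call (adjusted p = 0.544); with a library left out the count ran from 1 to 2. In Lyso against the relapsed lines, 2 members stayed higher at a thinned depth (Cxcl10 and Cx3cl1), and the count of lower members ran from 0 to 1 with a library left out. Members called higher in Tumor against the relapsed lines lost Cxcl10 in glmTreat (adjusted p = 0.271).

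The reversed values belong to differences that were not called in the report. With WT 3 as the only control Ccl5 in the relapsed lines was -0.47, and with WT 1 and WT 2 as the only controls Ccl5 in Tumor was 1.53. Thinned counts gave Cxcl12 in Lyso against WT -1.84. With a library left out, the log2 fold change ran from -1.31 to 2.37 for Ccl5 in the relapsed lines against WT, from -2.24 to 0.12 for Ccl5 in Lyso against WT, from -0.40 to 3.92 for Cxcl12 in Lyso against WT, from -0.83 to 1.53 for Ccl5 in Tumor against WT, from -1.39 to 0.75 for Ccl5 in Tumor against the relapsed lines and from -0.098 to 0.73 for Cx3cl1 in Tumor against the relapsed lines. The cause was not tested.

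The replicate numbers did not pair the libraries: correlations of deviations from the group means ran from -0.0151 to 0.1002 for equal numbers. With the replicate block, which could be fitted to WT, Lyso and Tumor, 3 members were higher in Lyso and 6 in Tumor against WT, and 5 were higher and 2 lower in Tumor against Lyso, of fewer genes tested (13084). Tumor 4 was the only library with its number, so the blocked Tumor differences rest on Tumor 1 and Tumor 3. Over all genes, the extremes came from glmTreat, thinning, no filter and the adjusted p alone: from 111 to 567 higher and 10 to 262 lower in Lyso against WT (362 and 86 as reported), 681 to 1808 and 61 to 1035 in Tumor against WT (1278 and 329), and 0 to 139 and 0 to 126 in the relapsed lines (2 and 4), with 680 to 2121 and 155 to 1570 in Tumor against Lyso (1311 and 618), 628 to 1798 and 50 to 1155 in Tumor against the relapsed lines (1247 and 344), and 161 to 747 and 11 to 420 in Lyso against the relapsed lines (479 and 155). WT 1, WT 2 and Tumor were shallow, so that depth and group are partly confounded, and Cxcl11 and Cxcl16 had at most 9 and 18 counts in any library.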

Other observations

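Other chemokine ligands of the same families were also present. Of 28 further ligands 11 passed the count filter, and 8 of these were higher in Tumor against WT in edgeR at an adjusted p under 0.05. Over all genes tested 8.56% were higher there. In edgeR 0 were called against WT in Lyso or in the relapsed lines, where 1 and 0 had an unadjusted p below 0.05. All 8 were at 0 in every WT library and entered the test through Tumor. Their calls there, and the lack of calls in the other groups, follow in part from the filter. DESeq2 called 5 of the 28 higher in Tumor against WT and 0 in the other groups. Ccl22, which did not pass the count filter, had 7, 6 and 9 counts in Lyso and 0, 1 and 5 in Tumor. It was at 0 in all WT and relapsed libraries. Ccl11, an attractant of eosinophils, measured 33.8, 19.1 and 21.9 CPM in Tumor 1, 3 and 4 and was at 0 in all WT and Lyso libraries. Cxcl2 and Cxcl5, which share the receptor CXCR2 with Cxcl1, measured 7.48, 8.45 and 13.4 CPM and 29.9, 19.9 and 4.71 CPM in Tumor. Cxcl14 was at 12, 6.84 and 32.2 CPM and Cxcl13, which attracts B cells, at 2.28, 12.3 and 7.77 CPM. Ccl6, Ccl8 and Ccl9 were the others called.

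Ccl25, Ccl27a and Ccl28, ligands of epithelial tissues, were measured in every library. Ccl25 ranged from 8.29 to 15.3 CPM and none of the 3 was called against WT. Among the 38 ligands, 19 to 23 were above 3 counts in each Tumor library, 10 or 11 in each Lyso library, 7 in each relapsed line and 3 to 6 in WT. These counts rise with depth, and the Tumor libraries were shallower than those of Lyso and of the relapsed lines. The 10 genes of the report held 96.6% to 97.0% of the ligand CPM in Lyso and 76.6% to 81.1% in Tumor.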
